A study of Mus musculus with 1778 samples.

Results

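The midbrain-hindbrain boundary, or isthmus, is the constriction of the early neural tube between midbrain and hindbrain. It forms where Otx2, a homeobox factor of the forebrain and midbrain, meets Gbx2, a homeobox factor of the anterior hindbrain. It acts as a signalling centre: Wnt1 is made on the midbrain side, Fgf8 and its relatives Fgf17 and Fgf18 are made at and behind the border, and En1, En2, Pax2, Pax5 and Pax8 are transcription factors of the territory. Hes3, a repressor of the Hairy and Enhancer of split family, is found in neural progenitors of the same place.

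Boundary-like cells were chosen here from single-cell RNA-seq of mouse embryos by what they expressed. A cell was a member where En1 reached 20 CPM, which are reads scaled to a common total per cell, and at least 1 of Pax8, Hes3 and Pax2 did too. Sox10, the marker of neural crest, had to be under 20 CPM. Fewer than 2 of the forebrain genes Fezf1, Rax, Hesx1, Lhx2 and Foxd4 could reach 20 CPM. Of 1778 cells, 1728 had at least 50000 reads outside the ERCC spike-in RNAs and at least 1500 detected genes. Of these 11.34% were members (95% exact Clopper-Pearson interval 9.89 to 12.93), and the other 1532 were the comparison.

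The cells came from C57BL/6 embryos of 4, 6, 8 and 10 somites that carried Wnt1::Cre and Rosa26TdTomato. In such embryos Cre is made under Wnt1 control and switches on a red reporter, so a labelled cell, or a cell it descends from, has used that control. Single labelled cells were sorted into lysis buffer and sequenced by Smart-Seq2, a full-length method without molecular identifiers. Every cell carries the label cranial neural crest cells, and boundary cells that the reporter did not mark were not sorted. No label names an embryo or litter, so each stage is 1 pool of cells and no test across samples was possible. All intervals cover counting error only, and reads are not independent molecules. The sample titles carry 8 plate numbers, here plates A to H, and do not say what the number stands for.

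The genes of the rule describe the members and are no finding. En1 ranged from 20.13 to 238.33 CPM in members, with a median of 63.33 CPM. The 3 members nearest the limit had En1 at 20.130, 20.528 and 20.621 CPM, and the 3 cells nearest below it that met the rest of the rule had 19.041, 19.686 and 19.958 CPM. There were 17 members between 20 and 25 CPM and 11 such cells between 15 and 20 CPM. Of the other kept cells with En1 at 20 CPM, 46 had none of the 3 partner genes at that level, 23 with a partner had Sox10 and 11 had 2 or more of the forebrain genes.

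Hes3 was the usual partner. It reached 20 CPM in 90.31% of members, against 51.02% for Pax2 and 45.41% for Pax8. In 52 members Hes3 was the sole partner, in 49 it came with Pax2, in 35 with Pax8 and in 41 with both. Over all plates the make-up of 4 and 6 somites was not the same, but on plate F, which held both, it was close. Pax8 reached the limit in 12 of 47 members at 4 somites (25.53%, 13.94 to 40.35) and in 64 members at 6 somites (47.76%, 39.07 to 56.56). Pax2 was at the limit in 31 of 47 members (65.96%, 50.69 to 79.14) at 4 somites and in 67 members (50%, 41.25 to 58.75) at 6 somites. The intervals of the 2 stages overlap slightly for Pax8 and more widely for Pax2. On plate F alone Pax8 was at the limit in 7 of 25 members (28%) at 4 somites and 11 of 36 (30.56%) at 6 somites, and Pax2 in 14 of 25 (56%) and 21 of 36 (58.33%).

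In mm10, by the GENCODE annotation, En1 lies on the plus strand at chr1:120602418-120607992, Pax8 on the minus strand at chr2:24420560-24475599, Hes3 on the minus strand at chr4:152285972-152291662 and Pax2 on the plus strand at chr19:44756045-44837871. Otx2 lies on the minus strand at chr14:48657677-48673819, Gbx2 on the minus strand at chr1:89927956-89931179, Fgf8 on the minus strand at chr19:45736798-45742915 and Wnt1 on the plus strand at chr15:98789857-98793837. Each value counts reads that the authors assigned to the whole gene.

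The name was checked against markers. At least 2 of the neuroepithelial markers Sox2, Sox1, Sox3, Sox21 and Nes reached 20 CPM in 81.12% of members and in 34.53% of others. Neural crest markers, whose leading gene Sox10 the rule barred, did so in 3 members (1.53%) and 51.04% of others. Head mesoderm markers did so in 3 members (1.53%) and 9.53% of others, and endothelial markers in 1 member (0.51%) and 4.50% of others. Intermediate mesoderm markers did so in 0 members and 0 others, so they cannot tell the sets apart. Otic markers, which matter because the ear placode also uses Pax2 and Pax8, did so in 10 members (5.10%) and 23.17% of others.

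Surface ectoderm markers were the exception, with at least 2 at 20 CPM in 62 members (31.63%) and in 42.36% of others. Their summed level ran from 0 to 2658 CPM in members, with a median of 57.81, and from 0 to 17228 CPM in others, with a median of 73.13. All 7 of these markers had reads in both sets. There were 52 members with 2 or more markers of another cell type, counted without Cdh1, Dlx5 and Sox10, and results are given without them where that changes a value. Without them all 30 named genes described below still had a ratio of 2-fold or more. Depth was similar, with a median of 382554 reads and 6489 genes per member against 388230 reads and 7049 genes in others, counted outside ERCC and the ribosomal gene Rn45s.

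Boundary-like cells were common early and rare late. At 4 somites there were 47 (21.36% of kept cells, 16.14 to 27.38), and at 6 somites the share was 16.05% (13.622 to 18.72). At 8 somites they were 6 cells (2.64%, 0.976 to 5.66) and at 10 somites 9 cells (2.02%, 0.927 to 3.80). The intervals of 4 and 6 somites overlap, those of 8 and 10 somites overlap, and the earlier pair lies above the later pair. Over the same stages cells with Sox10 at 20 CPM went from 10.91% to 30.42%, 70.93% and 78.25% of kept cells. Since every cell was sorted for the reporter, each share is of sorted cells and not of the head.

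Stage and plate were mostly tied. Plate F held 25 members at 4 somites (19.53% of its kept cells of that stage) and 36 at 6 somites (20%). Plate B held 5 of 72 at 6 somites (6.94%, 2.29 to 15.47), 6 at 8 somites (2.83%, 1.05 to 6.06) and 3 of 55 at 10 somites (5.45%, 1.14 to 15.12), where all 3 intervals overlap. Plate D held 22 of 92 at 4 somites (23.91%, 15.63 to 33.94) and 0 of 15 at 8 somites (0 to 21.80%), with intervals that overlap. The other members were 2 of 22 on plate A, 73 on plate E and 18 on plate H at 6 somites, and 6 on plate C at 10 somites. At 6 somites alone the share ran from 6.94% on plate B to 9.57% on plate H, 19.57% on plate E and 20% on plate F. The difference between early and late stages and that between plates can therefore not be told apart.

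**Figure D1:**
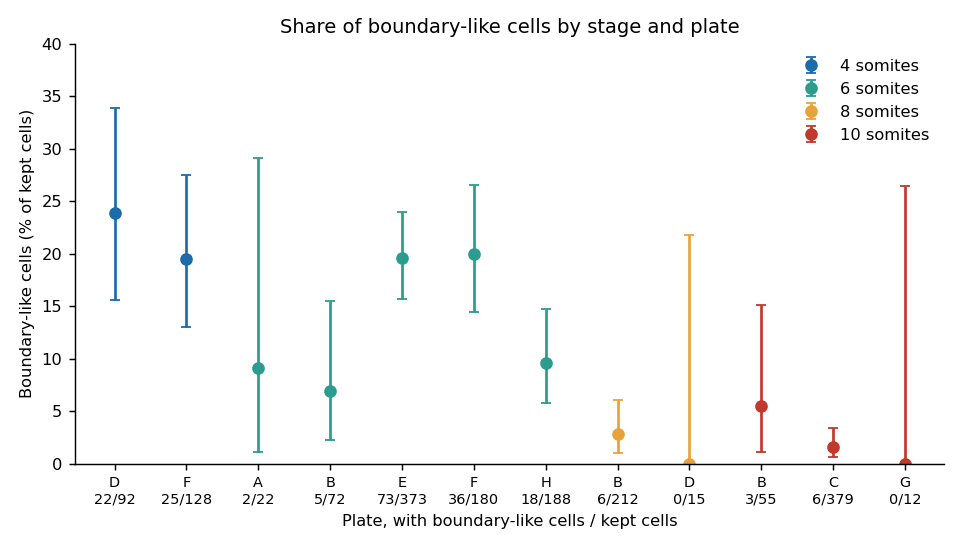
Share of boundary-like cells among kept cells (percent, y axis) for each stage and plate (x axis, with boundary-like over kept cells); points are shares, bars are 95% exact Clopper-Pearson intervals and colours are stages. The 4-somite points lie at 23.91% and 19.53%, the 6-somite points from 6.94% to 20%, and all 8- and 10-somite points at or below 5.45%.

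To compare members with other kept cells, reads were summed over cells within each stage and plate with at least 10 of both. There were 5 such sets, and values below follow their order: 4 somites on plates D and F, then 6 somites on plates E, F and H. The sets held 22, 25, 73, 36 and 18 members. A gene was called where the median log2 ratio over the 5 sets was at least 1 (2-fold) and all 5 had the same sign. Of 10118 genes with at least 5 CPM, 1.2% were higher and 3.23% lower in members. Without plate F these were 2.30% and 4.86%. How many of all measured genes had every set of members above every set of others was not counted. Many of the others were crest, so ratios were also taken against the other kept cells that had Sox2, but not Sox10, at 20 CPM (0.956% of 10046 genes higher and 1.53% lower). Ratios are log2 of members over other kept cells unless these Sox2 cells are named. Fewer cells with a transcript and less of it per cell cannot be told apart in summed reads, so counts of cells are given too.

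Genes of the isthmus stood high as a list. Of 18 listed genes 15 were measured, and 8 were higher and 0 lower, with a median ratio of 1.07 against -0.005 over all measured genes. Against the Sox2 cells 7 of 15 were higher and 0 lower, with a median of 0.94. Both shares stand above the 1.2% and 0.956% of all genes, and the list was drawn up with earlier results of these cells known.

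Among the transcription factors, Pax5, a paired box factor of the isthmus, had 5.72, 5.29, 8.02, 6.50 and 16.73 CPM in members of the 5 sets, against 0.954, 1.24, 0.848, 1.04 and 2.52 CPM in others. Each set of members was above every set of others. The median ratio of Pax5 was 2.64, from 2.09 to 3.24 over the sets. At an equal depth of 50000 reads a Pax5 read was seen in 25.77% of members (19.77 to 32.53) and 4.91% of others (3.88 to 6.11). Single cells were uneven, with Pax5 at 20 CPM in 30 members and a median of 0 CPM. En2, the second Engrailed gene, was under 5 CPM in summed reads, but 20 members (10.20%) had it at 20 CPM against 12 others (0.783%). Cnpy1, a gene known for FGF signalling at the isthmus, reached 20 CPM in 22 members and 15 others, and the LIM homeobox factor Lmx1b in 10 and 17.

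Among the signals, Wnt1 had 293.38, 153.78, 97.25, 143.58 and 165.96 CPM in members against 95.06, 52.44, 57.60, 37.21 and 57.83 CPM in others, a median ratio of 1.55. Every set of members lay above every set of others, narrowly where they came closest. On plate F at 6 somites the highest member had 2074.15 CPM of Wnt1, while the median over members was 32.16 CPM. The value of that set, and with it the lack of overlap, depended on that cell. Wnt1 was at 20 CPM in 57.65% of members and 26.24% of others. Against the Sox2 cells the Wnt1 ratio was 2.13, and against Sox10 cells it was 0.31 (0.06 to 0.68 over 4 sets), which was not called. Crest cells held 114.15 CPM of Wnt1.

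Fgf8 had 21.56, 6.04, 31.43, 44.46 and 45.03 CPM in members and 3.745, 3.68, 13.12, 11.03 and 14.58 CPM in others. The ratio of Fgf8 was positive in all 5 sets, from 0.72 to 2.52, with a median of 1.63, but the levels overlap between sets. In single cells it was at 20 CPM in 58 members (29.59%) and 8.49% of others. Fgf18 was called with 8.48 against 1.91 CPM and a median ratio of 1.93. Fgf17 had a median of 1.89 but was not called: on plate D at 4 somites it had 5.32 CPM in members and 7.52 CPM in others. Set against the Sox2 cells Fgf17 was called, with a median of 2.11. Fgf3, a further FGF ligand of the hindbrain, had 23.36 against 9.48 CPM and was called.

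The remaining called isthmus genes were the zinc finger factors Sp5 (71.67 against 32.31 CPM, ratio 1.22) and Sp8 (97.13 against 43.33 CPM, 1.04) and the homeobox factors Dmbx1 (23.26 against 8.70 CPM, 1.31) and Irx2 (44.07 against 24.34 CPM, 1.07). Relative to the Sox2 cells Sp5 and Dmbx1 were at 1.92 and 1.67, whereas Sp8 and Irx2 were at 0.81 and 0.78 and were not called. Irx3 (96.38 against 58.26 CPM) had a ratio of 0.71, under the limit.

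**Figure D2:**
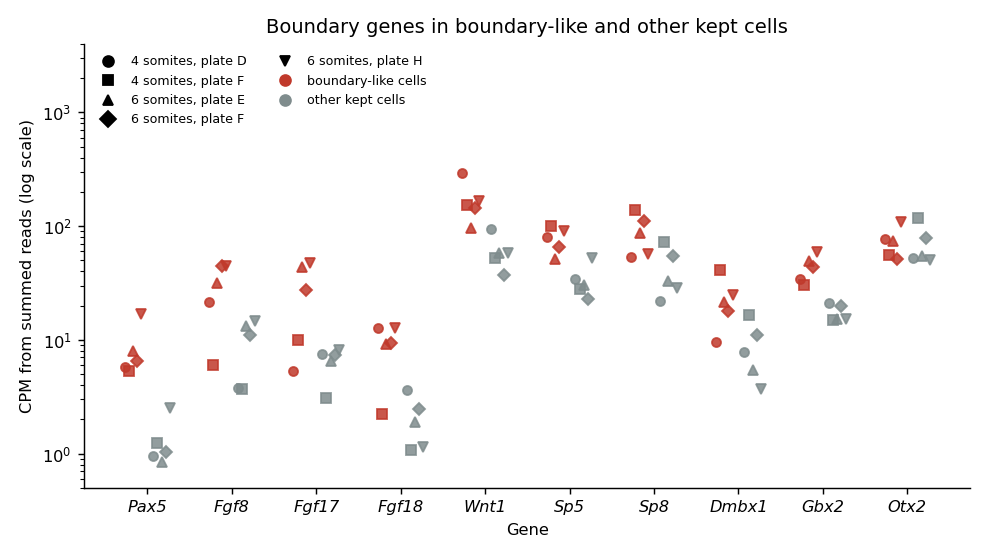
CPM from summed reads (log scale, y axis) of 10 genes (x axis) in boundary-like cells (red) and other kept cells (grey); each symbol is 1 stage and plate. The red points of Pax5 and Wnt1 lie above all grey points of the same gene, while Otx2 overlaps, from 51.14 to 109.78 CPM against 50.50 to 117.32 CPM. For Wnt1 on plate F at 6 somites this depends on a member with 2074.15 CPM.

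Otx2 and Gbx2 were not in the rule, and Gbx2 was called higher while Otx2 was not called. Gbx2 had 34.60, 30.66, 49.61, 43.93 and 59.82 CPM in members and 21.02, 14.83, 15.15, 19.95 and 15.13 CPM in others, so all sets of members lay above all sets of others. Its median ratio was 1.14, and 0.80 against the Sox2 cells, where it was not called. Otx2 had 77.43, 55.96, 73.63, 51.14 and 109.78 CPM in members and 52.53, 117.32, 54.62, 79.16 and 50.50 CPM in others. Its ratio was above 0 in 3 sets and below 0 in both sets of plate F, with a median of 0.43, and -0.55 against the Sox2 cells. No difference in Otx2 was called in either comparison.

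Single members mostly held 1 of the 2 genes. Otx2 without Gbx2 was at 20 CPM in 88 members (44.90%, 37.80 to 52.15) and Gbx2 without Otx2 in 58 members (29.59%, 23.30 to 36.51). Both were at 20 CPM in 21 members (10.71%, 6.76 to 15.91) and neither in 29 members (14.80%, 10.14 to 20.55). At 8 and 10 somites 0 members had both, among 6 and 9 cells. Among other kept cells 3.33% had both. Of the members, 28 had Otx2 and 34 had Gbx2 between 10 and 50 CPM, so near the limit. With 50 CPM as the limit, 2.55% of members had both genes, and 4.86% had both among members without 2 or more markers of another cell type.

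The signals split along the same line. Wnt1 reached 20 CPM in 67 of 88 members with Otx2 alone (76.14%, 65.86 to 84.58) and in 15 of 58 with Gbx2 alone (25.86%, 15.26 to 39.04). Fgf8 did so in 8 of 88 (9.09%, 4.01 to 17.13) and 32 of 58 (55.17%, 41.54 to 68.26). The intervals of both genes are far apart, in opposite directions, while the median depth of the 2 classes was 376104 and 376929 reads. Median levels were 114.87 and 0 CPM of Wnt1 and 0 and 28.98 CPM of Fgf8.

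By stage the counts were smaller. At 6 somites Wnt1 was at the limit in 42 of 56 Otx2 members and 11 of 45 Gbx2 members, and Fgf8 in 8 of 56 and 27 of 45. At 4 somites Fgf8 was at the limit in 0 of 23 Otx2 members (interval 0 to 14.82%) and in just 1 of 8 Gbx2 members. Wnt1 was then in 16 of 23 and 4 of 8. At 8 somites 3 of 3 Otx2 members had Wnt1 and 3 of 3 Gbx2 members had Fgf8. At 10 somites 6 of 6 Otx2 members had Wnt1, and 1 of 2 Gbx2 members had Fgf8. Not every plate followed. Fgf8 was in 3 of 8 Otx2 members and 1 of 4 Gbx2 members on plate H at 6 somites, and in 0 of 12 and 0 of 3 on plate F at 4 somites. On plate B at 6 somites, with 4 such cells, Wnt1 was in 0 of 1 Otx2 members and 2 of 3 Gbx2 members, and Fgf8 in 0 of 1 and 0 of 3.

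Other genes of the region were also unevenly spread over the 2 classes. Dmbx1 was at 20 CPM in 42 (47.73%) Otx2 members and 4 (6.90%) Gbx2 members, Otx1, a midbrain and forebrain factor, in 47 (53.41%) and 5 (8.621%), and Sp5 in 63 (71.59%) and 20 (34.48%). Fgf17 was at the limit in 14 (15.91%) and 27 (46.55%). Etv5, an ETS factor induced by FGF, was in 46 (52.27%, 41.35 to 63.04) and 42 (72.41%, 59.10 to 83.34), with intervals that overlap. Genes of the rule were closer: Hes3 in 86.36% and 94.83%, Pax2 in 44.32% and 50% and Pax8 in 38.64% and 55.17%. Irx3 was in 68.18% and 79.31%, and Fgf15 in 80.68% and 81.03%. These counts describe cells of 1 pool per stage and were not tested.

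**Figure D3:**
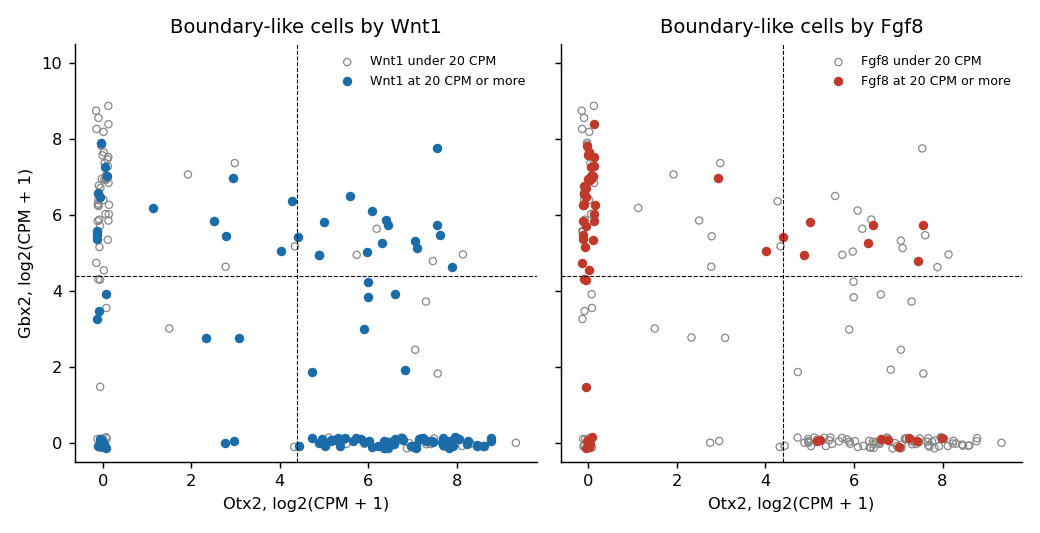
Otx2 (x axis) against Gbx2 (y axis), both as log2(CPM + 1) with a small random shift, in all boundary-like cells; filled points have Wnt1 (left) or Fgf8 (right) at 20 CPM or more and dashed lines mark 20 CPM. Wnt1 fills 67 of the 88 cells at lower right, and Fgf8 fills 32 of the 58 at upper left and 8 of the 88.

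A part of the neural progenitor genes was higher in members, beside 1.2% of all measured genes. Of 12 measured genes of neural progenitors 5 were higher and 0 lower: Sox1 (25.09 against 9.39 CPM), Sox3 (14.93 against 7.52 CPM), Sox21 (125.96 against 43.21 CPM), the Notch target Hes5 (12.65 against 6.32 CPM) and the POU factor Pou3f2 (8.18 against 1.53 CPM). Next to the Sox2 cells, chosen by 1 gene of that list, 1 of 12, Pou3f2, was called, with a ratio of 1.85 and a list median of 0.01. The rule kept forebrain cells out of the members and left them among the others and the Sox2 cells, so lower forebrain genes follow in part from the choice and are a description. Of 7 measured forebrain genes outside the rule 4 were lower and 0 higher, beside 3.23% and 1.2% of all measured genes. Six3, a forebrain and eye factor, had 0.576 against 19.33 CPM, and Dkk1, a Wnt antagonist, had 14.998 against 53.10 CPM. When compared with the Sox2 cells 5 of 8 forebrain genes were lower. Of the hindbrain Hox list 2 genes were measured: Hoxb1 was lower, with 0.173 against 5.10 CPM, and the other, Egr2, was not called, with 14.24 against 14.38 CPM.

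The FGF and Wnt response lists are read beside the 1.2% of all genes called higher and 3.23% called lower. Of 12 measured FGF response genes 0 were higher and 1 lower, with a median of 0.54. The Sprouty genes Spry1 and Spry2, feedback inhibitors of FGF signalling, had ratios of 0.05 and 0.66, the phosphatase Dusp6 -0.28 and Etv5 0.95, which was called against the Sox2 cells at 1.13. The gene that was lower was Shisa2, an antagonist of FGF and Wnt receptors, with 42.98 against 273.90 CPM. Of 11 measured Wnt response genes 2 were higher, Sp5 and the Wnt deacylase Notum (6.02 against 1.85 CPM), and 2 were lower, Dkk1 and Lgr5 (4.91 against 7.96 CPM). In the comparison with the Sox2 cells 4 of 11 were higher, Sp5, Notum (2.46), Axin2 (1.13) and Nkd1 (1.59), and 1 was lower, beside 0.956% and 1.53% of all genes.

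Genes of other tissues were mostly lower, and their counts stand beside 3.23% of all measured genes called lower. For crest this follows in part from the rule, which kept Sox10 cells out of the members while they made up much of the others. Of 11 measured neural crest genes 8 were lower, for example Sox9 with 28.79 against 104.65 CPM, of 9 surface ectoderm genes 8, of 8 ectomesenchyme genes 5 and of 5 endothelial genes 5. Kdr, the endothelial VEGF receptor, had 3.53 against 95.23 CPM. None of these 4 lists had a gene called higher against other kept cells. Where a set held 3 or fewer reads it was put at 3 reads, and the median ratio was then -2.77 for crest, -2.51 for surface ectoderm and -2.51 for ectomesenchyme genes. With the Sox2 cells, which lack Sox10 by choice, surface ectoderm was at -2.25 with 7 of 8 lower. Of 11 dorsal neural tube genes 5 were lower and 1 higher, with 1 lower and 1 higher of 9 against the Sox2 cells. The dorsal homeobox genes Msx1 and Pax3 had 6.81 against 18.81 CPM and 28.49 against 50.35 CPM.

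Cell cycle genes did not separate the cells. None of 10 S phase and 10 G2M genes was called, with medians of -0.003 and 0.06. Mcm6, a subunit of the replicative helicase, had 1339 against 1230 CPM, and Mki67 had 281.11 against 257.94 CPM. Of 11 measured Notch genes 2 were higher, the ligand Dll3 (13.24 against 4.78 CPM) and Hes5, beside 1.2% of all measured genes. Hes1 had 28.97 against 43.90 CPM, a ratio of -0.72.

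**Figure D4:**
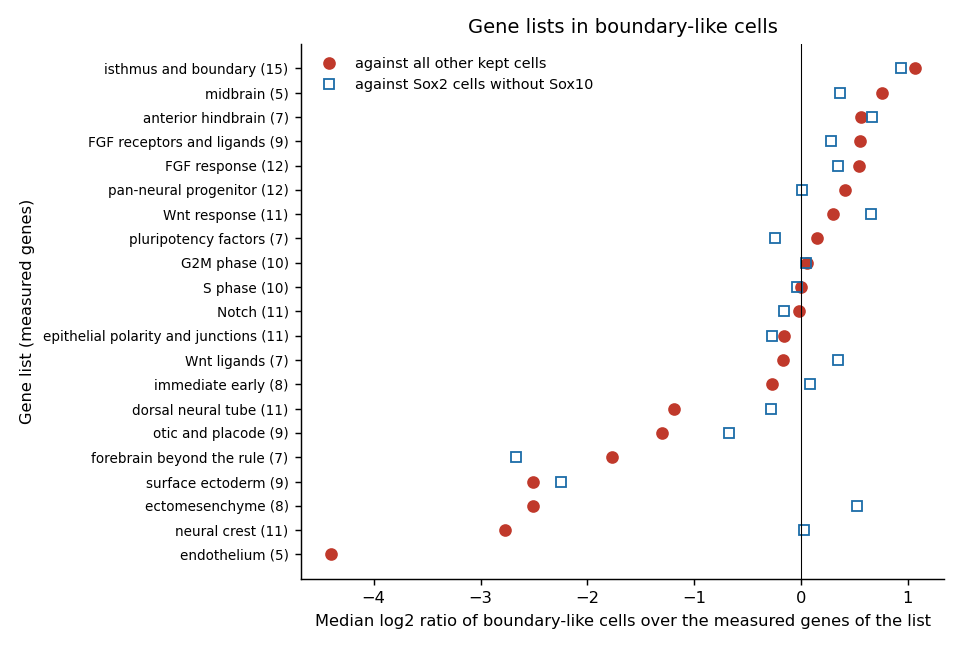
Median log2 ratio of boundary-like cells (x axis) over the measured genes of each list (y axis, number measured against all other kept cells), against all other kept cells (red circles) and against Sox2 cells without Sox10 (blue squares), with sets of 3 or fewer reads put at 3. The isthmus list is highest at 1.07. The crest and ectomesenchyme lists are at -2.77 and -2.51 over 11 and 8 measured genes. Against Sox2 cells they are at 0.03 and 0.53, over just 5 and 3 measured genes.

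Across all genes, Fam181b led the 15 named genes that were higher. It had 245.34, 89.81, 193.86, 206.64 and 436.14 CPM in members and 38.29, 29.24, 34.68, 43.19 and 45.13 CPM in others. No set of members overlapped any set of others, and the median ratio of Fam181b was 2.48, with 1.94 against the Sox2 cells. A Fam181b read was seen at 50000 reads in 82.47% of members (76.38 to 87.55) and 35.86% of others. Next came Rfx4, an RFX factor of the neural tube (75.28 against 25.53 CPM, ratio 1.98), and Foxb1, a forkhead factor of midbrain and diencephalon (52.71 against 18.80 CPM, 1.78).

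The other 12 of these 15 genes had ratios from 1.13 to 1.55. They were Wnt1, Sox21, Eml5, Wscd1, Ildr2, Pmaip1, Ano1, Fbln2, Lix1, Sp5, Klf3 and Tmem132c. Pmaip1, which encodes the cell death protein Noxa, had 172.62 against 66.27 CPM, and Ano1, a calcium-activated chloride channel, had 67.62 against 28.69 CPM. Fbln2, a matrix protein, was called on summed reads at 1.30, but a read was seen in 37.63% of members and 41.88% of others at equal depth. Of the 15, 11 were also called against the Sox2 cells. The exceptions were Foxb1 at 0.74, Sox21 at 0.66, Wscd1 at 0.88 and Ano1 at 0.95.

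The 15 named genes that were lower came from several tissues. Hapln1, a link protein of matrix, had 0 reads in members of 3 sets, and 2.55 against 76.73 CPM in all. Ets1, a crest and endothelial factor, had 3.54 against 151.97 CPM, but a ratio of -0.45 against the Sox2 cells. The epithelial keratins Krt8 (36.96 against 246.42 CPM) and Krt18 (39.24 against 176.87 CPM) and the adhesion molecule Epcam (22.01 against 91.87 CPM) were also lower against the Sox2 cells, at -2.75, -2.35 and -2.69. The imprinted gene Peg3 had 55.44 against 222.30 CPM with a narrow range of ratios, from -2.47 to -1.66. The others were Pkdcc, Shisa2, Emilin1, Selenop, Sox9, Car2, Dkk1, Irs4 and the ephrin receptor Epha7. Of the 15, 9 were also called against the Sox2 cells and 1, Emilin1, turned sign, to 0.54.

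Against 2 other sets of cells, members differed in ways that the wide comparison averages. The forebrain cells, chosen by 2 or more of the rule's forebrain genes, shared 5 sets with members, and 170 of 10050 genes (1.69%) were higher and 1.66% lower in members. Of the isthmus list 11 of 15 were higher and 0 lower, with a median of 2.22. Gbx2 had 42.75 CPM in members and 2.30 CPM in forebrain cells, and Wnt1 had 153.19 and 16.04 CPM. Otx2 was lower in members, with 67.42 against 152.92 CPM (ratio -1.03), and so was Otx1, with 27.49 against 62.02 CPM. Six3 and Fzd5, a Wnt receptor of the eye field, had 0.576 against 60.18 CPM and 4.71 against 72.69 CPM.

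The Sox10 cells shared 4 sets with members, in which 520 of 10032 genes (5.18%) were higher and 2.94% lower. Sox21 had 117.57 CPM in members and 8.50 CPM in crest, Foxb1 50.81 and 3.65, and Ntn1, a netrin of the ventral neural tube, 64.55 and 4.81. Otx2 and Gbx2 were both higher in members than in crest, at 70.51 against 16.19 CPM and 46.01 against 8.28 CPM. Fgf8 was at 34.79 against 1.11 CPM. The crest genes Ngfr and Tfap2b had 1.21 against 126.49 CPM and 1.30 against 82.50 CPM.

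Stages could be compared among members on plate F alone, with 25 members of 4 and 36 of 6 somites. Among them, 893 of 10186 genes (8.77%) were at least 2-fold higher and 947 (9.3%) lower at 6 somites. In the larger number of other kept cells of that plate it was 3.17% and 2.13%. Of 15 isthmus genes 4 were higher (Fgf8, Fgf17, Fgf18 and En2) and 2 lower (Irx3 and Dmbx1). In other kept cells all of these went the same way, with log2 ratios of 1.58, 1.26, 1.19, 4.95, -0.63 and -0.57 in that order. En2 had just 6 reads in members at 4 somites and 0 in others. The median ERCC share was 0.279% in members at 4 somites and 2.80% at 6 somites, and it was 0.291% and 2.80% in others. Its part in the differences was not tested.

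Fgf8 had 6.04 CPM (exact Poisson interval 4.85 to 7.43) in members of 4 somites and 44.46 CPM (41.33 to 47.77) in those of 6 somites. It was at 20 CPM in 2 of 25 and 15 of 36 cells, and the log2 ratio was 2.87, or 2.24 with each cell weighted equally. Fgf8 also differed in other kept cells, by 1.58, and whether the difference is larger in members was not tested. Over all 5 sets Fgf8 was at 21.56 and 6.04 CPM in the sets of 4 somites (plates D and F) and at 31.43, 44.46 and 45.03 CPM in those of 6 somites (plates E, F and H). The levels of the 2 stages do not overlap, though plate D at 4 somites is nearer to plate E than to plate F of its own stage. The share of all measured genes without such overlap was not computed. In both sets of 4 somites much of the level came from the highest member, at 276.58 CPM on plate D and 125.59 CPM on plate F.

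Fgf17 was likewise at 5.32 and 9.97 CPM in the sets of 4 somites (plates D and F) and at 43.39, 27.48 and 47.17 CPM in those of 6 somites (plates E, F and H). En2 was at 0.401 and 0.407 CPM in the sets of 4 somites (plates D and F) and at 5.19, 5.24 and 4.07 CPM in those of 6 somites (plates E, F and H). Pax8, a rule gene, was at 42.13 and 30.32 CPM in the sets of 4 somites (plates D and F) and at 70.80, 66.40 and 131.01 CPM in those of 6 somites (plates E, F and H). Fgf17 and En2 did not overlap between the stages, nor did Pax8, which helped to choose the members. How many of all measured genes lack such overlap was not counted, so it sets no gene apart. Plate F, where Fgf8, Fgf17, En2 and Irx3 passed 2-fold, gave a set to both stages. On plate F alone Pax8 was at 20 CPM in 28% of members at 4 somites and 30.56% at 6 somites. The highest member there at 6 somites had 672.77 CPM of Pax8. Irx3, an Iroquois homeobox factor, was at 116.05 and 162.39 CPM in the sets of 4 somites (plates D and F) and at 74.05, 61.03 and 84.48 CPM in those of 6 somites (plates E, F and H), again without overlap but in the other direction. Fgf18, Dmbx1 and Wnt1 overlapped between the stages: Dmbx1 was at 9.63 and 40.90 CPM in the sets of 4 somites (plates D and F) and at 21.31, 18.12 and 24.87 CPM in those of 6 somites (plates E, F and H). The Notch ligand Dll1 had 5.63 and 31.53 CPM on plate F, but 23.97 CPM at 4 somites on plate D and 16.42 CPM at 6 somites on plate E.

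**Figure D5:**
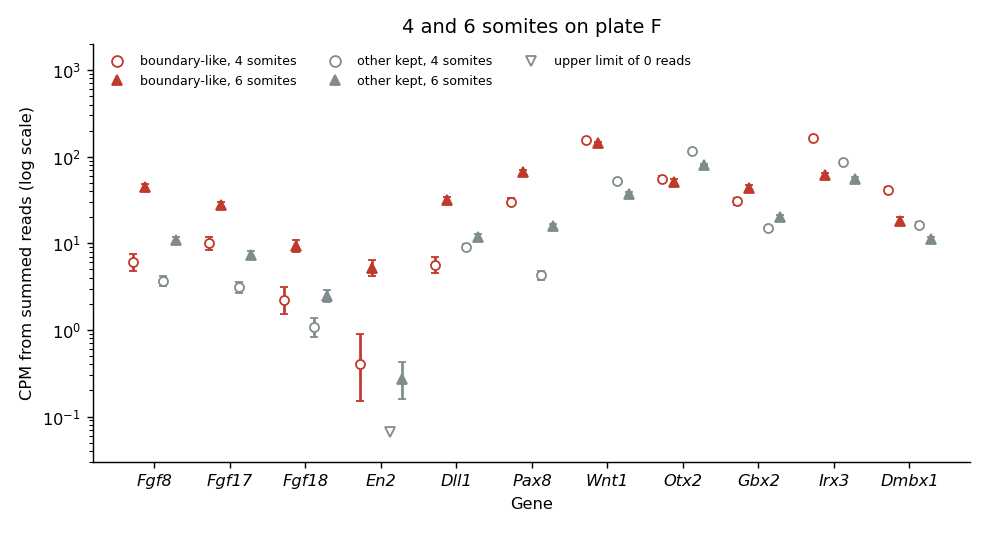
CPM from summed reads (log scale, y axis) of 11 genes (x axis) on plate F at 4 somites (open circles) and 6 somites (filled triangles), in boundary-like cells (red) and other kept cells (grey); bars are 95% exact Poisson intervals and the open down-pointing triangle is the upper limit of 0 reads. Fgf8 of boundary-like cells goes from 6.04 to 44.46 CPM and Irx3 from 162.39 to 61.03 CPM.

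Other lists on plate F are read against the 8.77% and 9.3% of all genes past 2-fold. Of 7 otic and placode genes 1 was higher and 4 lower, of 7 surface ectoderm genes 2 and 2, of 9 FGF ligands and receptors 3 and 1, and of 6 Wnt ligands 2 and 1. Of 10 dorsal neural tube genes 6 were lower and 1 higher at 6 somites. Among those lower were Bmp7 (24.89 to 8.05 CPM) and Lmx1a (15.33 to 1.37 CPM). Lmx1a was at 20 CPM in just 3 of 25 members at 4 somites and 1 of 36 at 6 somites. In other kept cells the log2 ratios of Bmp7 and Lmx1a were 0.53 and -0.65. Of 13 neural progenitor genes 2 were higher, Sox3 (8.89 to 23.84 CPM) and Pou3f2 (2.37 to 9.83 CPM), and 1 was lower, Sox2 (68.24 to 29.92 CPM). Ptch1, a target and receptor of Hedgehog signals, had 11.40 and 44.46 CPM, with a log2 ratio of 0.06 in other kept cells. None of 10 S phase and 10 G2M genes passed 2-fold. Among the 6 named genes with the highest ratio were Trove2 (11.26 to 61.21 CPM), Tex15, Mir6236, Zfp955a and Dicer1, the nuclease that makes microRNAs (36.49 to 133.21 CPM). Those with the lowest ratio were Zmym5 (67.70 to 13.35 CPM), Recql4, Pml, Zfp51, Sec14l1 and the polarity protein Pard3 (92.86 to 27.60 CPM). With members chosen at 50 CPM in place of 20, Pml had a ratio of 0.0026.

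The 15 late members formed no set of 10 on a plate and are given by cell. At 8 somites, 6 members on plate B had En1 from 22.08 to 68.71 CPM. Pax8 was at 20 CPM in 4 and Pax2 in 0 of them, with Pax2 from 0 to 17.18 CPM. At 10 somites, all 9 members had Pax8 at 20 CPM, with medians of 211.74 CPM on plate B and 215.54 CPM on plate C, while Hes3 was there in 6 and Pax2 in 2. The shallowest of the 9 had 42650 reads, and its En1, Hes3, Otx2 and En2 were each at 23.45 CPM, which is 1 read.

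En2 and Fgf18 were often present in the latest cells. En2 was at 20 CPM in 6 of 9 members at 10 somites (the shallowest by 1 read), 1 of 6 at 8 somites, 13 (9.70%) at 6 somites and 0 of 47 at 4 somites. Cnpy1 followed with 5 of 9, 2 of 6, 15 (11.19%) and 0 of 47, and Pax5 with 5 of 9, 3 of 6, 19 (14.18%) and 3 of 47. Fgf18 was in 7 of 9, 1 of 6, 28 (20.90%) and 5 of 47. Fgf8, the main organizer signal, was in 1 of 9, 3 of 6, 49 (36.57%) and 5 of 47, and Wnt1 in 6 of 9, 3 of 6, 72 (53.73%) and 32 of 47. On plate B, which held 3 stages, En2 was in 0 of 5 members at 6 somites, 1 of 6 at 8 somites and 2 of 3 at 10 somites. On plate B Pax5 was in 5 of 5, 3 of 6 and 3 of 3, Cnpy1 in 3 of 5, 2 of 6 and 2 of 3, and Fgf18 in 3 of 5, 1 of 6 and 2 of 3, so that the order of these 3 genes over the stages does not hold there.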

How the data were processed

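Reads of Smart-Seq2 libraries were demultiplexed with bcl2fastq 2.18 and aligned with STAR 2.6 to mm10, per the submitters' processing notes. The counter and annotation, not given in the sources used here, bear on the counts of overlapping and duplicated genes. Per gene and cell, the authors deposited raw read counts, in 1 table with 1778 cells, 24920 genes and 92 ERCC spike-ins. It holds 0 mitochondrial genes. Smart-Seq2 reads carry no strand, so overlapping genes on opposite strands cannot be told apart. Columns were tied to samples by title, and stages come from the labels. No 2 columns were identical. Cells were sorted 1 to a well and no doublet caller was run. Plates A to H stand for the numbers 6150653, 6150657, 6150662, 6150663, 7350589, 7350590, 7350657 and 7350658 in the titles.

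Of 1728 kept cells 196 were members, 47, 134, 6 and 9 by stage of 220, 835, 227 and 446 kept cells. The comparison sets held 413 Sox2 cells, 244 forebrain and 788 Sox10 cells. A set of hindbrain cells and some named genes are not reported here. CPM were computed over reads outside ERCC and Rn45s, a ribosomal RNA precursor that held a median of 58.5% of reads in members and 54.6% in others. Members had 40040 to 886266 such reads. Ratios are log2 of summed reads with 0.5 reads added. Shares at equal depth come from 1 draw of 50000 reads per cell and leave out 6 shallower cells. Cells of a pool are not replicates, so no test was run and no p-value is given.

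Named genes were, in each direction, the 15 called genes with the most extreme ratio (6 between stages). They needed 50 CPM and a read at 50000 reads in 20% of cells of the higher set. Unnamed gene models, pseudogenes, ribosomal protein genes and sex-linked genes were left out, and up to 5 genes per list were added. The members and the 26 gene lists were chosen with earlier results of these data known. The ratios were tested on simulated data before use. There, genes set 2-fold higher were called in 46% of cases and genes set 2-fold lower in 48%, rates that follow from 2-fold being the calling limit itself. For 4-fold differences it was 96% in both directions, and 0.417% of unchanged genes were called. A gene not called may therefore still differ by 2-fold. Simulated cells were independent and drew on 1 profile for all sets, so these rates leave out differences between plates and stages. Coordinates are from GENCODE (GRCm38). Python 3.11.15 and pandas 2.3.3 were used. Scaling by edgeR 4.0.16 and DESeq2 1.42.0, other limits and filters, and leaving out each plate were tried as alternatives.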

Additional observations from a re-analysis of the deposited data

How the results depend on the processing

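No paired analysis was possible because replicate numbers were given in accession order and only name single cells. The share of members was 13.43% with the rule at 10 CPM, 6.19% at 50 CPM and 8.33% without members that carry 2 or more markers of another cell type. At these settings it was 27.73%, 10.45% and 13.18% at 4 somites. At 6 somites it was 9.46% at 50 CPM and 12.34% without those members. At 50 CPM it was 0.441% at 8 and 0.897% at 10 somites. Leaving out 1 plate gave 9.08% to 14.08% over all stages, 19.53% to 23.91% at 4, 13.20% to 17.93% at 6, 0% to 2.83% at 8 and 1.53% to 4.48% at 10 somites. Without plate B the 8-somite share was 0%, from 15 cells, and without plate C the 10-somite share was 4.48%.

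Genes higher in members were 30.04% of measured genes with no minimum CPM, where genes with almost no reads enter, 0.712% at 50 CPM (31 genes) and 3.05% without strata. With 1 plate left out they were 1.20% to 2.30%, the most without plate F. Genes lower were 2.97%, 0.666% (29 genes) and 5.42%, 1.53% against Sox2 cells, and 3.23% to 4.86% with 1 plate left out, again the most without plate F. For 6 against 4 somites, 16.09% were higher and 14.14% lower with members at 50 CPM, 9.623% and 10.08% with no minimum, and 2.21% and 2.46% at 50 CPM. Members with both Otx2 and Gbx2 were 2.55% at 50 CPM, 4.86% without members that carry other markers, and 8.43% to 11.85% with 1 plate left out. Otx2 alone was then in 44.21% to 46.34% and Gbx2 alone in 24.39% to 34.07%. Signs turned for Emilin1 (0.54), the crest list (0.0404) and the ectomesenchyme list (0.53) against Sox2 cells, the dorsal list at 50 CPM (0.73) and Pml of 6 against 4 somites with the rule at 50 CPM (0.00263). Those crest and ectomesenchyme medians cover 5 and 3 measured genes, where the main comparison had 11 and 8. Under edgeR and DESeq2 scaling, mean CPM per cell and 5 added reads, all 30 named genes kept their sign and a ratio of 2-fold or more. It was 27 of 30 without strata, 28 with the rule at 50 CPM, 29 with the rule read at 50000 reads, without plate F or without plate H, and 21 against Sox2 cells.

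Limits are the 18 to 73 members per set, the 15 late members, the few reads that 20 CPM amounts to in shallow cells, and plates mostly tied to stage. In 2 members, with 40040 and 42650 reads, En1 at the limit was 1 read.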
